A study of Homo sapiens with 8 samples.

Results

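Regions of accessible chromatin that lay inside protein-coding genes, away from both gene ends, and that were called in every library were described in mitotic human cells. Peaks of 8 lists were merged on chromosomes 1 to 22 where they shared at least 1 bp, which gave 583075 regions. Of these, 36170 held a peak in 8 of 8 lists and are called constitutive here. A constitutive region was gene-internal when it overlapped a protein-coding gene body of the RefSeq table and lay more than 1 kb from both annotated ends of every protein-coding gene. This rule gave 11011 gene-internal constitutive regions in 5083 genes. The other constitutive regions were 10492 within 1 kb of a gene end and 14667 intergenic ones. Members were chosen by the measured presence of a peak in all 8 lists and by position, so neither is a finding, and the rank of the peaks, which bears on being called, is given as a description.

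ATAC-seq maps accessible DNA by letting the transposase Tn5 insert sequencing adapters into it. Accessible sites inside genes include enhancers, the promoters of shorter transcripts of the same gene, promoters of transcripts that start within another gene, and binding sites of architectural proteins. Much of the accessibility of interphase chromatin is known to be kept at promoters on mitotic chromosomes, and distal sites are known to be more variable in mitosis.

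All 8 libraries came from one cell line, hTERT RPE-1, a telomerase-immortalised human retinal pigment epithelial line, of genotype Plk1-/- EGFP-Plk1as. Plk1 is a kinase of mitotic entry and spindle assembly, and its analog-sensitive form (Plk1as) is blocked by the purine analog 3MB-PP1. Cells in both groups had been held for 16 h in 5 µM STLC, a kinesin-5 inhibitor that arrests cells in prometaphase, and were shaken off. With STLC still present, cells of 4 libraries then received 0.5% DMSO for 2 h and cells of 4 others 10 µM 3MB-PP1. Each transposition used 50000 cells of a mitotic index above 95%. The DMSO cells thus carry the same Plk1 alleles and the same arrest, and no library with wild-type Plk1 or without STLC is compared. The labels number the replicates and call them biological, without saying whether they came from separate cultures, so p-values measure the spread between these libraries.

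The DMSO lists held 149172 to 197782 peaks on chromosomes 1 to 22 and the 3MB-PP1 lists 169667 to 250548. The smallest peak was 114 to 135 bp in DMSO and 90 to 109 bp in 3MB-PP1, and the median peak 355 to 409 bp and 269 to 324 bp. Peak lists hold no totals of reads, so the depth is unknown and no interval resting on depth is given. The replicates numbered 1 and 3 and those numbered 2 and 4 differed in how far the groups lay apart in earlier results of these lists, so both subsets are given beside the main width results. The labels name no batch. Among markers of the cell type, 4 of 14 listed genes of retinal pigment epithelium identity (28.6%, against 26.6% of all coding genes) held a gene-internal constitutive region: PAX6 2, MITF 2, RLBP1 1 and MERTK 1, and RPE65 and BEST1 held none. Of 10 listed blood cell genes, 4 (40%) held 1 region each: CD247, BCL11B, IKZF3 and THEMIS, and PTPRC and SPI1 held none. From peaks with a -log10 q of at least 2, 3 of the 14 genes held 4 regions and none of the 10 held any.

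Most regions at or above the 99th percentile of peak rank lay at an annotated transcript start inside a gene body, and fewer did at lower rank. Each peak was ranked within its own list by -log10 p, with 100 as the top percentile, and a region took the mean over the 8 lists of its best peak. Of 11011 regions, 1259 (11.4%) overlapped an annotated transcript start window of RefSeq, which runs from 250 bases before to 50 bases after a start. A protein-coding transcript started in 1077 of them, and in 182 only a long non-coding RNA did. The share was higher at higher rank: 3.57% of regions below the 60th percentile were at a start and 9.39% between the 80th and 90th. It was 18.5% between the 90th and 95th, 42.9% between the 95th and 99th, and 61.5% in the 122 regions at or above the 99th. It also differed with the number of lists that called a region: 0.351% of 137460 gene-internal regions called in 1 list were at a start, 2.66% of those called in 7 lists and 11.4% of those called in 8. Read from the starts, 31.2% of 4506 protein-coding start windows more than 1 kb inside a gene body lay in a member, against 12.4% of 3102 long non-coding RNA windows there. At gene ends, 64.5% of 16650 protein-coding windows and 73.1% of 2394 long non-coding RNA windows lay in a constitutive region.

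**Figure D1:**
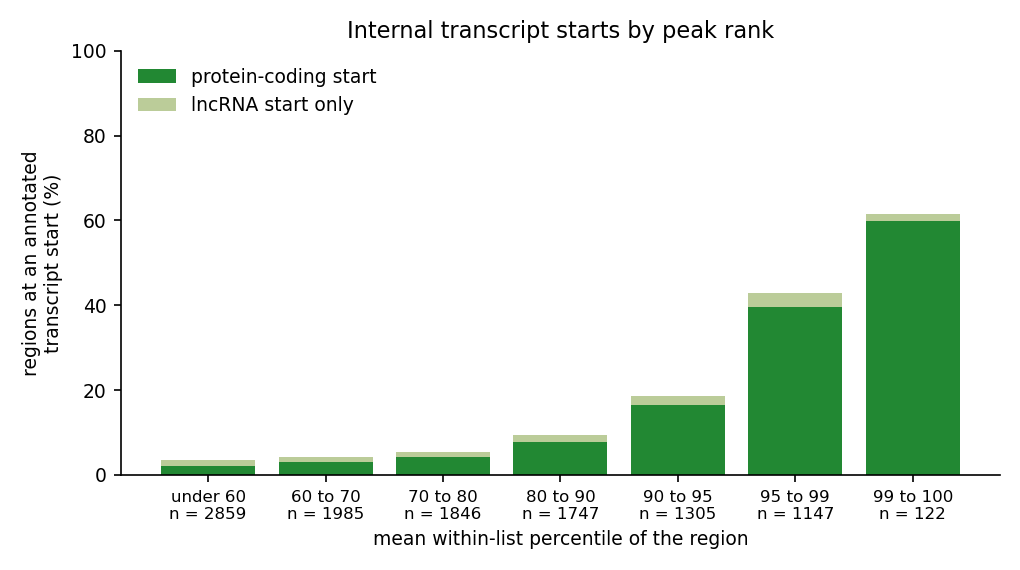
Share of gene-internal constitutive regions at an annotated transcript start (y axis, percent) by mean within-list percentile (x axis, number of regions under each bar), with protein-coding starts in dark green and starts of long non-coding RNAs only in light green. The share is 3.57% in the lowest class and 61.5% in the highest.

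The sequences before the starts are shown for 6 regions at a transcript start. These are the named regions with a start window that lay wholly inside the stretch covered by peaks in all 8 lists. They come from RefSeq (GRCh38.p14), 5′ to 3′ on the strand of the transcript, and end at the base before the start. Capitals mark matches, on either strand, to 8 motifs searched: AP-1 TGANTCA, TEAD GGAATG, RUNX TGTGGTT, ETS CCGGAAG, SP/KLF GGGCGGG, CRE TGACGTCA and the longer CTCF and NFI motifs. No searched motif contains another. NDEL1 encodes a regulator of the dynein motor, UVSSA a factor of transcription-coupled DNA repair, HMGB1 an architectural chromatin protein, SLC11A2 a divalent metal ion transporter, PTPRA a receptor-type tyrosine phosphatase and ADAMTSL1 a glycoprotein of the extracellular matrix.
NDEL1, chr17:8435634-8435883, plus strand: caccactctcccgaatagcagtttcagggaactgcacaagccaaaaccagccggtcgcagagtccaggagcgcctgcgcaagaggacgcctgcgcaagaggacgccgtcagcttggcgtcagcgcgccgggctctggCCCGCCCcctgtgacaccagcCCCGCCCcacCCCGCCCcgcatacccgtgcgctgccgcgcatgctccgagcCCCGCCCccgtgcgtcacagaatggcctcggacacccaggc
UVSSA, chr4:1346958-1347207, plus strand: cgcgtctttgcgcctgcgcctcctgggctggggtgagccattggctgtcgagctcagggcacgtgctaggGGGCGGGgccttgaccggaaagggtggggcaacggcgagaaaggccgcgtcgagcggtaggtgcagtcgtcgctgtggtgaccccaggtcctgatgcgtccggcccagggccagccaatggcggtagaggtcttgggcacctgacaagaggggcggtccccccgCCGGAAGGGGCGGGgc
HMGB1, chr13:30465937-30466186, minus strand: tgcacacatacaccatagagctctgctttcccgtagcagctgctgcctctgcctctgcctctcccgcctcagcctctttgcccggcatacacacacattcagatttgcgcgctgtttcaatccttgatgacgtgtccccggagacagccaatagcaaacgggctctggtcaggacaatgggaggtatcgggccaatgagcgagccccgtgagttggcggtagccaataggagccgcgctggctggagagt
SLC11A2, chr12:51026385-51026634, minus strand: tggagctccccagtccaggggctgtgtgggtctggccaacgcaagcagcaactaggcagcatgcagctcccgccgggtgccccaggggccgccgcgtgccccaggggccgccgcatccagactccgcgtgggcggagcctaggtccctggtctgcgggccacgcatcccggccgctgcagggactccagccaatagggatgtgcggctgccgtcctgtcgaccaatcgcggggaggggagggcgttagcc
PTPRA, chr20:2873231-2873480, plus strand: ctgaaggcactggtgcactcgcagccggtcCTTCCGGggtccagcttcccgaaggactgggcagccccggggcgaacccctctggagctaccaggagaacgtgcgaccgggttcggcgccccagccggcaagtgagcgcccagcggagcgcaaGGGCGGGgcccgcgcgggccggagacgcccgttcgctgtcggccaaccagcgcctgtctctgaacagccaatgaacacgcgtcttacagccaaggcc
ADAMTSL1, chr9:18473903-18474152, plus strand: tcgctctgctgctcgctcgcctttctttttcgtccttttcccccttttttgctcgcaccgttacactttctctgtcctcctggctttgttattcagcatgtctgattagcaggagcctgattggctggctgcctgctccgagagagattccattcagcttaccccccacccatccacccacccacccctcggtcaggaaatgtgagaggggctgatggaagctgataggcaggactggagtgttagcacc

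The NDEL1 sequence held 4 SP/KLF matches and 26 CpG dinucleotides, the UVSSA sequence 2 SP/KLF matches, 1 ETS match and 23 CpG. PTPRA held 1 ETS and 1 SP/KLF match with 27 CpG. No match was found in the HMGB1, SLC11A2 and ADAMTSL1 sequences, which held 14, 21 and 8 CpG. Over the full 300-base windows, 49.2% of 1405 protein-coding start windows in members held an SP/KLF match, against 17.3% of 2795 protein-coding windows inside genes that lay in no constitutive region, 55.9% of 11051 windows in gene-end constitutive regions and 42.6% of all 21156. ETS matches stood in 10.6%, 3.26%, 19.6% and 12.9% of the same windows. The median number of CpG was 23 in members, 5 in the other internal windows and 27 at constitutive gene ends. AP-1 matches, at 7.19%, 9.59%, 3.97% and 6.08%, were lower in members than in the other internal windows and higher than at constitutive gene ends. A match is a description of letters and not a site in use, and members away from starts have no sequence in the tables used here.

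The region with the highest rank lay at the tip of chromosome 1 (chr1:10069-10611), inside the predicted gene LOC124905564, with a mean percentile of 99.99. Its covered width was 535 to 543 bp in all 8 libraries, and its authors' fold enrichment 13.4 to 18.3. Sequence near chromosome ends is shared between chromosomes, and how the authors' alignment treated such reads is not given in the sources used here. NDEL1 followed (chr17:8435484-8436651, mean percentile 99.95), 22353 bp from the nearest gene end, with a fold enrichment of 6.32 to 7.49. Next came UVSSA (chr4:1345960-1347748), HMGB1 (chr13:30464571-30466553) and UST (chr6:149031789-149033047), at mean percentiles of 99.94, 99.94 and 99.93. UST encodes a uronyl 2-sulfotransferase, and its region held the start of the antisense transcript UST-AS2. Among the widest regions were those in CIC, a transcriptional repressor (chr19:42279900-42284855), and PLEC, a cytoskeletal linker (chr8:143939625-143944262). Covered width in the CIC region was 4497, 4334, 4956 and 4386 bp in DMSO replicates 1 to 4 and 4399, 3669, 4942 and 4193 bp in 3MB-PP1 replicates 1 to 4. The groups overlapped there, and the CIC region, but not the PLEC region, was at an annotated start.

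Most genes with a member held 1, and the genes with the most were long genes. Of 5083 host genes, 2810 (55.3%) held 1 region, 1234 held at least 3, 96 at least 10 and 11 at least 20. HPSE2, which encodes heparanase 2, led with 49 regions in 859 kb on chromosome 10 (5.71 per 100 kb). DLGAP2, a postsynaptic scaffold, followed with 31, NTM, a neuronal cell adhesion protein, and PTPRN2, a phosphatase of secretory vesicles, with 30 each, and ATRNL1 and LRMDA with 23 each. The leading genes with fewer include PDE4D (22), a cAMP phosphodiesterase, CACNA1C (21), an L-type calcium channel subunit, ADAMTSL1 (21), ANKS1B (20), LDLRAD4 (19), TMEM132B (19), PLXNA4 (19), a semaphorin receptor, and SNTG2 (18). These 15 genes together held 368 regions, 3.34% of all. Median rank within them was between the 55.8th percentile (DLGAP2) and the 80.4th (PDE4D), where the median over all members was the 73.5th. Of the 15 genes, 9 had a constitutive region at one of their own ends. The best-ranked member of each stood between the 77.0th percentile (LDLRAD4) and the 98.2nd (ADAMTSL1), and the one in ADAMTSL1 is the only one of these at an annotated start. In HPSE2 no member was at a start, and the best-ranked (chr10:98597708-98599697) stood at 89.2, 140631 bp from a gene end.

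Across host genes, the number of members followed gene length with a Spearman's rho of 0.54, which describes these genes only. The median host gene was 84.3 kb long, against 24.5 kb for all 19126 coding genes and 545 kb for genes with at least 10 members. Members were of higher rank where they stood alone: the median percentile was 77.4 in genes with 1 member, 73.5 in genes with 2 to 4 and 68.2 in genes with 10 or more. A constitutive region at an own gene end stood in 63.4% of genes with 5 to 9 members and 61.5% of those with 10 or more. The share was 62.3% in the 14043 genes of any length without a member. Among genes of at least 100 kb, it was 67.4% of the 2244 with a member and 74.1% of the 966 without.

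The order of genes depended on the strength required of the peaks. Where every peak used had a -log10 q of at least 2, 2732 regions met the rule and HPSE2 held 7, NTM and ADAMTSL1 6 each, PTPRN2 5 and DLGAP2 2, while ANKS1B and LDLRAD4 held 0. KCNMA1, a calcium-activated potassium channel, then led with 9 regions. At a -log10 q of at least 5, 787 regions met the rule and HPSE2 held 0. TTC34 led there with 5, and of the 15 genes only ADAMTSL1 (2), DLGAP2 (1) and PLXNA4 (1) held any. KCNMA1, NAV2, DLGAP1, FRMD4A, BNC2, PALLD, SCAND3, DUX4 and NFIB, a transcription factor, followed TTC34 with 3 each, and DUX4 lies in a repeat array whose reads may be placed uncertainly. These genes were picked out after their values were seen. The plot of counts by gene shows the fall for 14 of these genes.

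**Figure D2:**
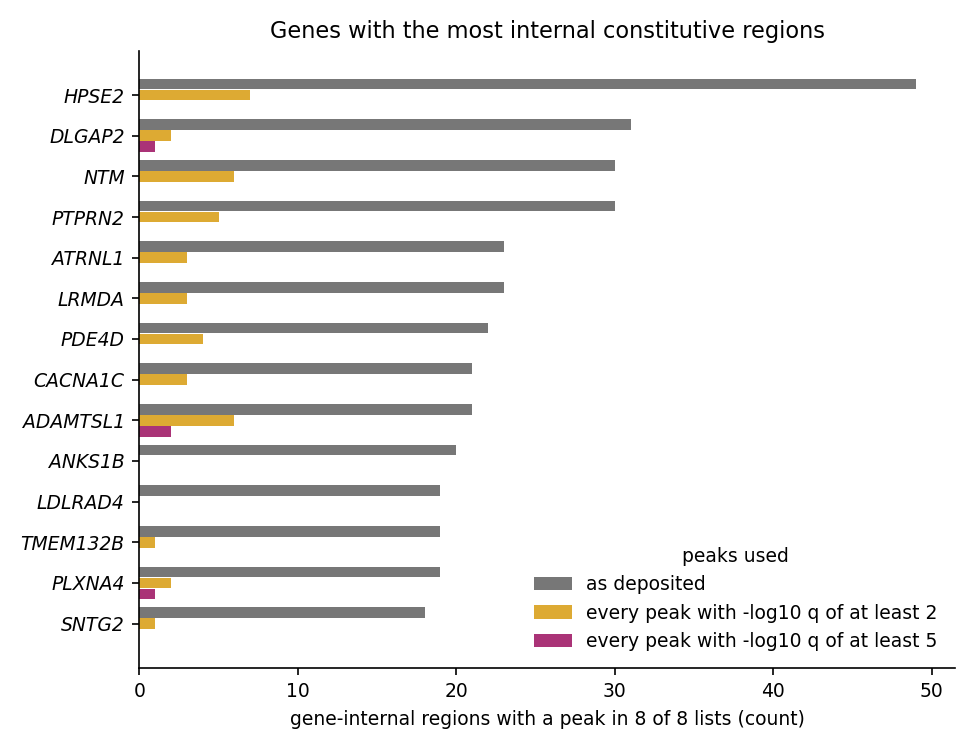
Number of gene-internal constitutive regions (x axis, count) in 14 of the 15 genes with the most (y axis), from all deposited peaks (grey), from peaks with a -log10 q of at least 2 (yellow) and of at least 5 (purple). HPSE2 falls from 49 to 7 and then 0.

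Relative to length, smaller genes led. Among the 503 genes with at least 5 members, AHDC1, a DNA-binding protein, had 6 regions (8.57 per 100 kb), TEX36 9 (8.44 per 100 kb), TLL2, a tolloid-like metalloprotease, 12 (8.04 per 100 kb) and VIPR2, a receptor of vasoactive intestinal peptide, 9 (7.71 per 100 kb). TRAM2, CUEDC1, ACTN4, NEURL1, FANK1 and FCGBP followed at 7.01 to 7.53 per 100 kb, where all coding genes pooled held 0.907 per 100 kb. ACTN4, which encodes the actin crosslinker alpha-actinin-4, differed from the rest in rank: its 6 regions had a median percentile of 91.3, and ACTN4 held 5 regions from peaks with a -log10 q of at least 2. TEX36 and TLL2 held 0 then.

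Chromosomes 10 and 12 held more members than their share of gene bodies. Chromosome 10 had 1070 regions (16.7 per Mb of coding gene body) and chromosome 12 had 1084 (17.1 per Mb), against 6.29 to 11.1 per Mb on the other 20 autosomes. Both together held 19.6% of members in 10.5% of the coding gene body. On chromosome 10 the density was 11.5, 6.88 and 3.39 per Mb in the first 3 steps of 20 Mb and 15.8, 23.6, 26.5 and 30.5 per Mb from 60 Mb onward. HPSE2, ATRNL1, LRMDA, TEX36, TLL2, NEURL1 and FANK1 lie beyond 60 Mb, and CACNA1C, ANKS1B and TMEM132B lie on chromosome 12. hTERT RPE-1 cells are known to carry an extra copy of part of the long arm of chromosome 10, and gains of chromosome 12 have been described in sublines. DNA copy number was not measured in these libraries and its part in these counts was not tested. Of the 787 regions at a -log10 q of at least 5, chromosome 10 held 7.37% and chromosome 12 7.12%. Regions within 5 Mb of a chromosome end were also denser, at 14.6 per Mb against 8.60 per Mb elsewhere, and DLGAP2, NTM, PTPRN2, CACNA1C and SNTG2 lie there.

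**Figure D3:**
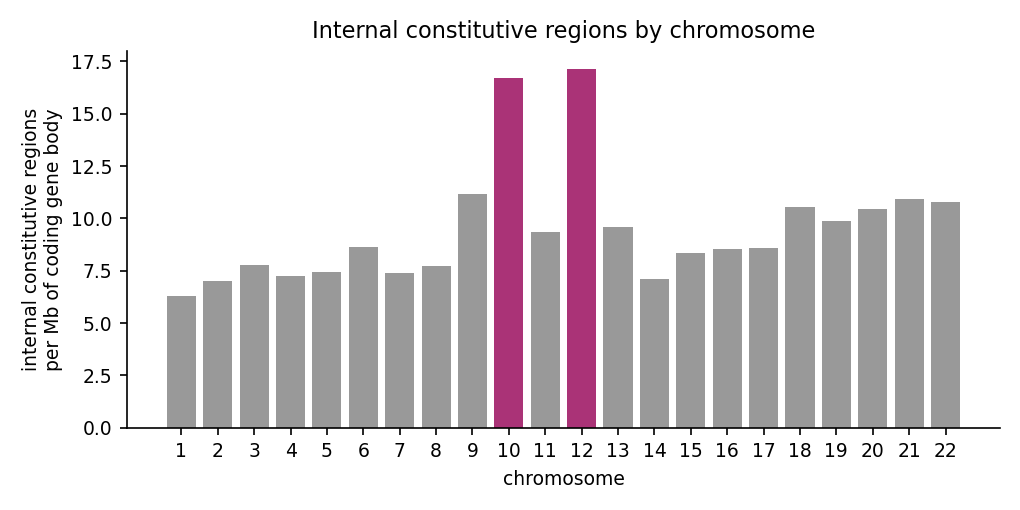
Gene-internal constitutive regions per Mb of coding gene body (y axis) on chromosomes 1 to 22 (x axis), with chromosomes 10 and 12 in purple. Both stand at 16.7 and 17.1 per Mb, above the 6.29 to 11.1 per Mb of the others.

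The rule placed members more than 1 kb from gene ends, and most stood farther inside. The median distance to the nearest end of a protein-coding gene was 28.6 kb, with quartiles of 10.97 and 70.85 kb. Gene-internal regions called in 7 of 8 lists had a median distance of 33.1 kb, with quartiles of 11.7 and 81.2 kb. Regions at a transcript start lay nearer the 5′ end: among 1189 regions in 1 gene of known strand, 68.4% lay nearer the 5′ than the 3′ end and 6.22% in the last 20% of the gene. Among 7689 regions away from starts these shares were 50.7% and 18.6%. Just inside the 1 kb limit, 205 members 1.0 to 1.5 kb from an end had median widths of 899 to 1074 bp in DMSO and 762 to 837 bp in 3MB-PP1. Just outside it, 347 gene-end regions 0.5 to 1.0 kb from an end had 915 to 1133 bp and 710 to 864 bp. The 7719 gene-internal regions called in 7 of 8 lists were narrower, at 508 to 612 bp and 416 to 455 bp in the lists that called them. The list without a call was DMSO replicate 1 in 23.4% and 3MB-PP1 replicate 4 in 22.5% of them.

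Genes of adhesion, signalling and transcription lists held a member in 55.0% to 90.9% of cases, against 26.6% of all coding genes. These shares are not matched for length, as the lists hold longer genes than the coding median of 24.5 kb. Among all coding genes of at least 100 kb, 2244 held a member and 966 did not. Of 34 focal adhesion and actin genes, 23 (67.6%) held 97 regions in all. PALLD, an actin-associated scaffold, led with 11, TLN2 and LPP held 9 each and TNS3 8. The median length of this list was 115 kb and its pooled density 1.63 per 100 kb. Of 22 receptor tyrosine kinase genes, 20 held members, with 9 in IGF1R, 7 in ROR2, 6 in ALK and 4 in EGFR. Transcription factor genes followed with 27 of 31, led by NFIB and GLIS3 (13 each) and ESR1 and RARB (11 each). Of 22 Hippo pathway genes, 14 held members: PTPN14 and TEAD1 8 each, VGLL4 7 and WWTR1, which encodes TAZ, 5. Of 20 TGF-beta and SMAD genes, 11 did, with 8 in SMAD3 and 3 in the co-receptor gene TGFBR3, and of 20 extracellular matrix genes 13 did, with 21 in ADAMTSL1, 6 in LTBP1 and 5 in COL4A2. Neuronal adhesion and synapse genes, whose median length was 1463 kb, held members in 20 of 25 but at 0.216 per 100 kb, led by CNTN5 (15), OPCML and CTNNA3 (14 each) and NRXN3 (9). The lists were chosen with earlier results of these data known and support no direction.

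Gene-internal constitutive regions were narrower after 3MB-PP1. Their median covered width, the bases of a region under peaks of a library, was 972, 931, 1108 and 851 bp in DMSO replicates 1 to 4 and 724, 714, 770 and 661 bp in 3MB-PP1 replicates 1 to 4. The groups did not overlap. The means were 965.5 bp ± 107 (SD, n = 4) and 717 bp ± 44.7 (SD, n = 4), and the difference of -248 bp gave p = 0.0286 in a two-sided exact permutation test, the smallest that 70 assignments allow, and 0.0381 adjusted over 4 measures. Within replicates 1 and 3 it was -293 bp, and within replicates 2 and 4 it was -203.5 bp. Members were also split into more peaks, with 1.09 ± 0.0350 peaks per region in DMSO and 1.21 ± 0.0496 in 3MB-PP1 (SD, n = 4, exact permutation p = 0.0286, adjusted 0.0381). The difference was 0.175 in odd-numbered and 0.0498 in even-numbered replicates. It was 0.0504 from peaks at a -log10 q of at least 2 and 0.0527 from peaks no shorter than 300 bp, and 0.00667 from peaks at a -log10 q of at least 5 (exact permutation p = 0.343). Between 6.003% and 13.4% of members held at least 2 peaks in DMSO and between 13.5% and 22.6% in 3MB-PP1. The 3MB-PP1 lists had smaller smallest and median peaks over the whole list too, as given above, and the part of peak calling in the widths was not tested. With peaks below 135 bp left out of every list, the width difference was -252.5 bp, and with lists cut to equal length it was -293 bp.

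Narrowing was not particular to gene-internal regions. Gene-end constitutive regions went from 1449 bp ± 78.5 to 1240 bp ± 51.3 (SD, n = 4) and intergenic ones from 885 bp ± 84.0 to 688 bp ± 37.0 (SD, n = 4), each with an exact permutation p of 0.0286, unadjusted. On the log2 scale, the median width of members relative to gene-end regions was -0.59 ± 0.09 in DMSO and -0.79 ± 0.04 in 3MB-PP1 (SD, n = 4), a difference of -0.20 (exact permutation p = 0.0286, adjusted 0.0381). It was -0.25 in odd-numbered and -0.15 in even-numbered replicates. This relative difference depended on the regions compared. It was -0.14 at or above the 90th percentile (exact permutation p = 0.0286, adjusted 0.0571) and -0.09 below it (exact permutation p = 0.171, adjusted 0.171). It was -0.01 where each list covered at least 50% of the region (exact permutation p = 0.543, adjusted 0.686), a filter that itself acts on width. Relative to intergenic regions, the difference was -0.06 (exact permutation p = 0.171, adjusted 0.171), and its sign turned in other settings. It was 0.03 at or above the 90th percentile and at a -log10 q of at least 2 (exact permutation p = 0.0571, adjusted 0.0571 in each). It was 0.05 at a -log10 q of at least 5 (exact permutation p = 0.0286, adjusted 0.0571) and 0.01 with 50% covered (exact permutation p = 0.686, adjusted 0.686).

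Members at a transcript start were about as wide as gene-end regions. Their median width was 1436 bp ± 86.4 in DMSO and 1188 bp ± 54.2 in 3MB-PP1, and that of the other members 910 bp ± 106 and 671 bp ± 41.8 (SD, n = 4). Relative to the other members, those at a start were wider by 0.66 ± 0.10 in DMSO and 0.83 ± 0.05 in 3MB-PP1 on the log2 scale (SD, n = 4). Relative to gene-end regions they stood at -0.01 ± 0.02 and -0.06 ± 0.01. The difference of 0.16 between 0.66 and 0.83 had an exact permutation p of 0.0286, unadjusted, and was added after the data were seen; it was 0.20 in odd-numbered and 0.12 in even-numbered replicates. Regions at a start also ranked higher, with a median percentile of 93.4 to 95.1 in DMSO and 93.7 to 95.8 in 3MB-PP1 against 77.1 to 83.7 and 73.3 to 82.1. Of members at a start, 64.3% stood at or above the 90th percentile, against 18.1% of the others. In that class the median log2 width difference per region was -0.18 at starts and -0.34 elsewhere. It was -0.33 and -0.49 from the 80th to 90th percentile, and -0.29 and -0.34 below the 60th. From the 70th to 80th it was -0.46 and -0.44, and from the 60th to 70th -0.42 and -0.35. The part of rank in the difference of 0.16 was not tested.

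**Figure D4:**
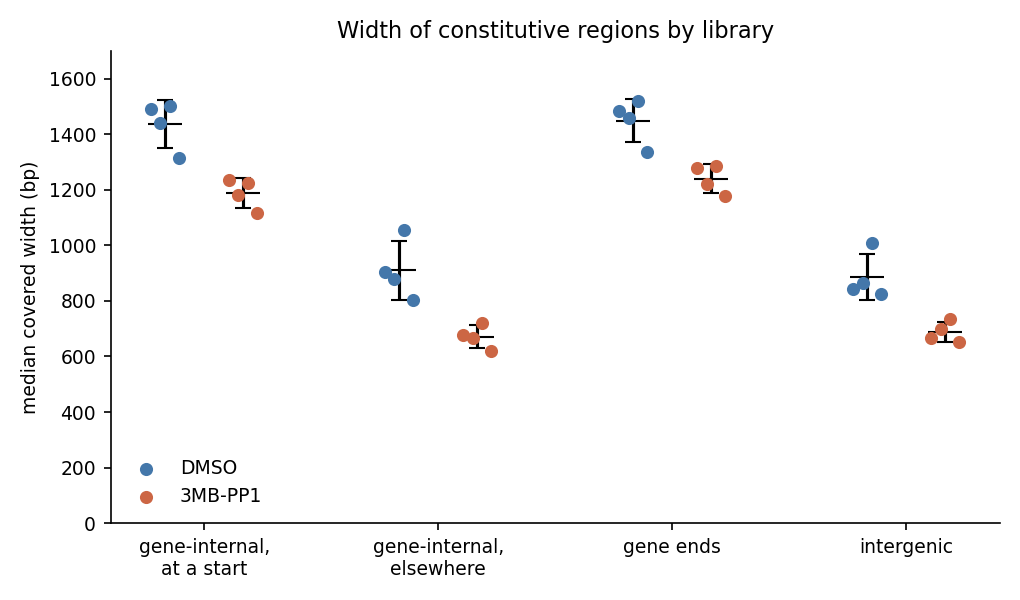
Median covered width (y axis, bp) of gene-internal constitutive regions at and away from transcript starts, gene-end and intergenic constitutive regions, with 1 point per library (DMSO blue, 3MB-PP1 orange) and the mean and SD of each group of 4 in black. In all 4 classes the 3MB-PP1 points lie below the DMSO points.

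Single regions were called rarely, and the 3 with the smallest p lay in SLC11A2, RAPGEF2 and FNDC3B. In a limma fit of log2 covered width over all 36170 constitutive regions, 36 of 11011 members were narrower and 0 were wider at an adjusted p of at most 0.05, where 0.274% of all constitutive regions were narrower and 0% wider. At an unadjusted p under 0.05, 2276 members were narrower and 74 wider. Unadjusted counts over all constitutive regions are not given here, so those of members are not set against a share. Widths of the 4 DMSO libraries all exceeded those of the 4 3MB-PP1 libraries in 1235 members (11.2%, against 10.9% of all constitutive regions), and the reverse held in 47 (0.427%, against 0.379%). The median log2 difference over members was -0.36 (-0.39 in odd-numbered and -0.31 in even-numbered replicates), and over all constitutive regions -0.27. Without 3MB-PP1 replicate 3 the count of 36 fell to 19 (0.173%, against 0.147% of all constitutive regions). It fell to 9 without 3MB-PP1 replicate 4 (0.0817%, against 0.0498%). It rose to 95 without DMSO replicate 4 (0.863%, against 0.658%) and to 44 without 3MB-PP1 replicate 1 (0.400%, against 0.307%). It fell to 0 when DMSO replicate 1, 2 or 3 or 3MB-PP1 replicate 2 was left out. It was also 0 with widths centred on each library's median, where 772 members were narrower and 758 wider at an unadjusted p under 0.05. With the replicate block, or without the variance trend, 0 members were called as well, and the 3 regions had limma adjusted p-values of 0.0914 with the block and 0.0642 to 0.0801 without the trend. A call on a single region below is one on widths as deposited, with all 8 libraries, the trend and no block.

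The SLC11A2 region (chr12:51023790-51026948) covers the transcript start shown above, 1938 bp from a gene end. Its width was 2513, 2513, 2869 and 2427 bp in DMSO replicates 1 to 4 and 1560, 1393, 1343 and 1378 bp in 3MB-PP1 replicates 1 to 4. The groups did not overlap, each DMSO library had 1 peak there and each 3MB-PP1 library 2, and the log2 difference was -0.86 ± 0.09 (SE, limma adjusted p = 0.0264). RAPGEF2 encodes an exchange factor of the GTPase Rap. Its region (chr4:159266626-159269577) lay 90596 bp from a gene end, and its width was 2833, 2945, 2607 and 2650 bp in DMSO and 1139, 1561, 1371 and 1225 bp in 3MB-PP1 (log2 difference -1.07 ± 0.11, SE, limma adjusted p = 0.0264). The FNDC3B region (chr3:172128688-172130852) held 1 peak in all 8 libraries, of 1825, 2162, 1802 and 1997 bp in DMSO and 727, 844, 925 and 727 bp in 3MB-PP1. Its log2 difference was -1.28 ± 0.13 (SE, limma adjusted p = 0.0264), and its mean width with 3MB-PP1 was 0.413 of that in DMSO. The odd- and even-numbered values were -0.89 and -0.83 in SLC11A2, -1.12 and -1.01 in RAPGEF2 and -1.14 and -1.41 in FNDC3B.

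The 36 regions lay in 37 genes, had log2 differences of -2.33 to -0.40 and a median percentile of 83.1, and 7 of them were at a transcript start. Regions among them lay in SMAD3 (chr15:67105254-67108705, -0.40), in the receptor gene IGF1R (chr15:98872286-98874934, -1.30) and in the TEAD cofactor VGLL4 (chr3:11581798-11583991, -1.89). RCC1, the exchange factor of the GTPase Ran (chr1:28514712-28519041, -0.87), and TGIF1, a SMAD corepressor (chr18:3447863-3452499, -0.44), were called at transcript starts. These 5 were chosen after their values were seen. No member was called wider. The 3 with the smallest p in that direction were in GRIP1, a scaffold of glutamate receptors (log2 difference 0.84 ± 0.21, SE, limma adjusted p = 0.104), SCAPER (1.51 ± 0.37, SE, limma adjusted p = 0.106) and PTPRA (0.39 ± 0.10, SE, limma adjusted p = 0.116). The SCAPER region measured 286, 533, 422 and 258 bp in DMSO and 874, 1541, 1168 and 697 bp in 3MB-PP1, and no base of it was covered in all 8 lists. The PTPRA region measured 1387, 1292, 1517 and 1219 bp in DMSO and 1777, 1727, 1941 and 1655 bp in 3MB-PP1. The GRIP1 region measured 669, 907, 1147 and 1000 bp and 1624, 2175, 1373 and 1482 bp. In all 3, the groups did not overlap although the test was not passed. The regions of highest rank were not called. NDEL1 measured 1113, 1099, 992 and 1013 bp in DMSO and 1078, 1068, 1102 and 1130 bp in 3MB-PP1 (log2 difference 0.06 ± 0.13, SE, limma adjusted p = 0.827). HMGB1 measured 1865, 1968, 940 and 1609 bp and 1205, 872, 1259 and 809 bp, with overlap (-0.59 ± 0.26, SE, limma adjusted p = 0.258). UVSSA had a log2 difference of -0.19 and UST one of -0.12.

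**Figure D5:**
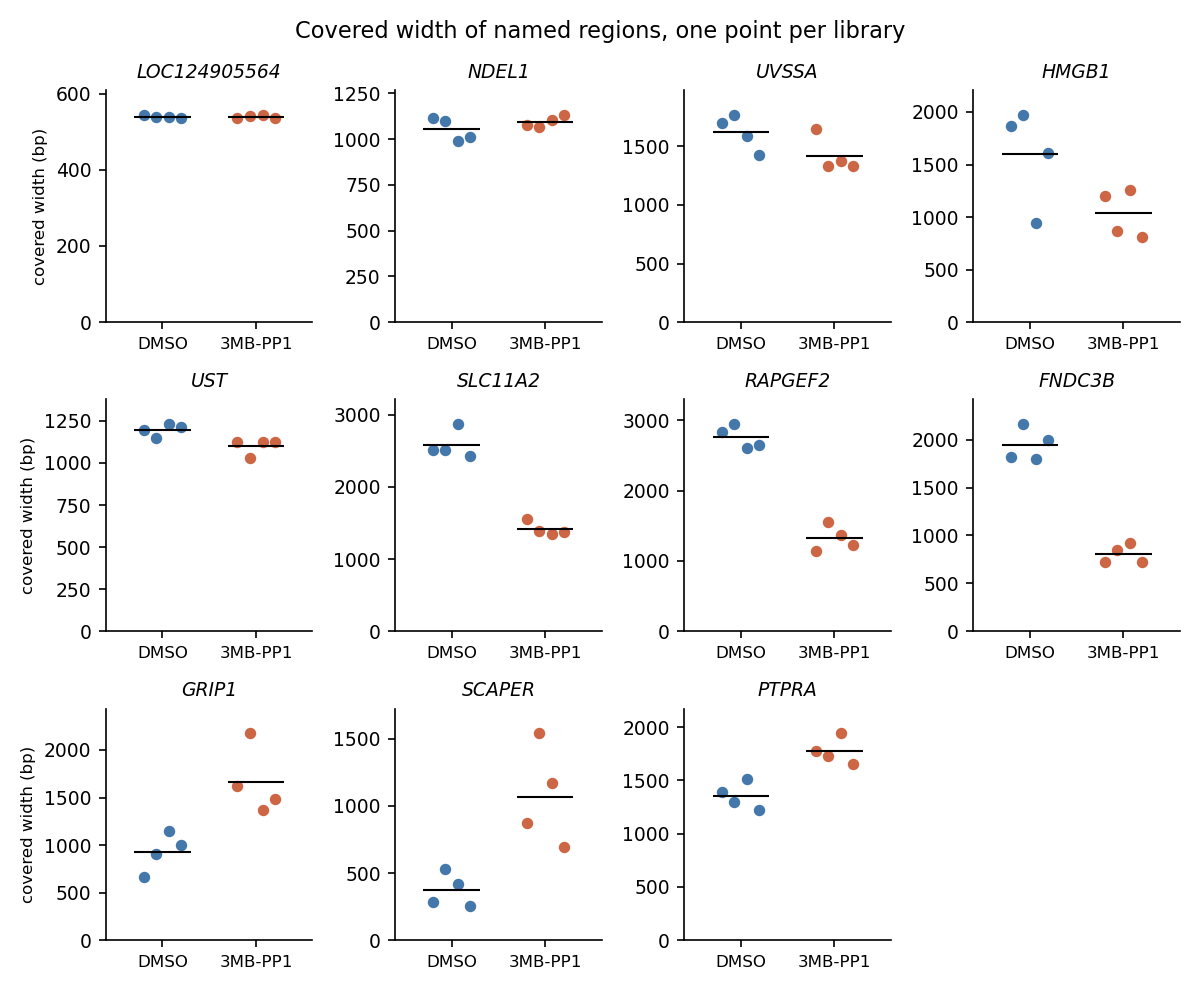
Covered width (y axis, bp, starting at 0 and scaled per panel) of 11 named regions in DMSO (blue) and 3MB-PP1 (orange), with 1 point per library and a line at the mean of 4. SLC11A2, RAPGEF2 and FNDC3B are lower in all 4 3MB-PP1 libraries, GRIP1, SCAPER and PTPRA higher, and NDEL1 overlaps.

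Averaged over the members of a gene, narrowing was frequent. In a limma fit of the log2 mean width in 1234 genes with at least 3 members, 417 genes (33.8%) were narrower, 0 were wider, and the median log2 difference was -0.39 (-0.43 in odd-numbered and -0.34 in even-numbered replicates). With widths centred on the library median 0 genes passed in either direction, against 101 narrower and 88 wider at an unadjusted p under 0.05, so no gene was called apart from the shift of the library medians. Leaving out DMSO replicate 1, 2 or 3 lowered the count of 417 to 211, 277 and 141. Leaving out 3MB-PP1 replicate 1, 2, 3 or 4 lowered it to 348, 294, 372 and 240. Without DMSO replicate 4 it rose to 560. TNIK, a kinase of the Wnt pathway, fell most: the mean width of its 6 members was 1337, 1111, 1639 and 911 bp in DMSO and 491, 420, 569 and 371 bp in 3MB-PP1 (log2 difference -1.42 ± 0.22, SE, limma adjusted p = 0.00667). Next were EGFLAM (-1.24 ± 0.33, SE, limma adjusted p = 0.0153), which encodes the matrix protein pikachurin, and AKAP6 (-1.18 ± 0.26, SE, limma adjusted p = 0.00961), an anchoring protein of protein kinase A. TNIK stood at -1.49 in odd-numbered and -1.35 in even-numbered replicates, EGFLAM at -0.67 and -1.80 and AKAP6 at -1.55 and -0.81. The kinesin gene KIF6 (-1.18 ± 0.38, SE; -0.32 and -2.04 in odd- and even-numbered replicates) had a limma adjusted p of 0.0308, which was over 0.05 without DMSO replicate 1, 2 or 3 or 3MB-PP1 replicate 4, and 0.0724 at most. PTPRK, a receptor-type phosphatase, had -1.15 ± 0.28 (SE, limma adjusted p = 0.0122). EGFLAM, KIF6 and PTPRK held 3 members each and AKAP6 4.

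Of the 15 genes with the most members, only PLXNA4 and PDE4D passed. PLXNA4 measured 1316, 1355, 1382 and 974 bp in DMSO and 888, 628, 870 and 622 bp in 3MB-PP1, without overlap (log2 difference -0.75 ± 0.18, SE, limma adjusted p = 0.0116). PDE4D measured 1133, 950, 1181 and 654 bp and 763, 682.5, 568 and 416 bp (-0.69 ± 0.24, SE, limma adjusted p = 0.0379), with 1 DMSO library inside the 3MB-PP1 range. Its call was lost without DMSO replicate 1, 2 or 3 or 3MB-PP1 replicate 3 or 4, with an adjusted p of up to 0.122. HPSE2 measured 814, 857, 964 and 765 bp in DMSO and 599, 745, 792 and 654 bp in 3MB-PP1, with overlap (-0.29 ± 0.18, SE, limma adjusted p = 0.188). DLGAP2 and ANKS1B had differences of 0.01 and -0.01, the smallest in size of the 15. The smallest p for a wider mean was in QTGAL (0.58 ± 0.22, SE, limma adjusted p = 0.0544), MUC4 (0.45 ± 0.18, SE, limma adjusted p = 0.0597) and SCAPER (0.65 ± 0.27, SE, limma adjusted p = 0.0681), none of which passed. MUC4, a mucin, holds tandem repeats, and how reads of repeats were placed is not given in the sources used here.

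By gene list, 9 of 14 focal adhesion and actin genes in the fit were narrower, among them PALLD (-0.70 ± 0.15, SE, limma adjusted p = 0.00961), TLN2 and ACTN4, with a median log2 difference of -0.48 over the list. Of the receptor tyrosine kinases 5 of 6 were narrower, with EGFR at -0.52 ± 0.15 (SE, limma adjusted p = 0.0203) and a list median of -0.73, while ROR2 stood at 0.15 (limma adjusted p = 0.546). Hippo pathway genes were narrower in 5 of 8, transcription factors in 9 of 17, TGF-beta and SMAD genes in 1 of 2 (SMAD3, -0.53 ± 0.12, SE, limma adjusted p = 0.0110), extracellular matrix genes in 1 of 5 (COL5A1) and neuronal adhesion and synapse genes in 1 of 7 (NRXN3). No gene of these lists was wider. The share over all 1234 genes was 33.8% and the median -0.39, and no list was tested against other genes. After centring, 0 genes of any list passed.

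Hairpins of 30 microRNA genes, of 1461 in RefSeq on chromosomes 1 to 22, lay in 29 members. MIR3175 in CHD2 and MIR6090 in ETS1 lay in regions at the 99.8th and 99.6th percentile, and MIR6507 lay in a region of HPSE2 at the 71.4th. MIR152, in COPZ2, lay at the 90.6th. Their mature sequences are shown to identify them, with the seed (bases 2 to 8) in capitals, and no 2 of the 5 seeds are alike.
hsa-miR-3175: cGGGGAGAgaacgcagugacgu
hsa-miR-6090: gGGGAGCGaggggcggggc
hsa-miR-6507-5p: gAAGAAUAggagggacuuugu
hsa-miR-6507-3p: cAAAGUCCuuccuauuuuuccc
hsa-miR-152-3p: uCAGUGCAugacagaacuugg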

How the data were processed

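ATAC-seq peak lists of 8 libraries (4 DMSO, 4 3MB-PP1) were used. The deposited lists give, per peak, position on hg38, length, a pileup (signal), a -log10 p and -log10 q, and a fold enrichment (a ratio). Per the submitters' processing notes, MACS2 and DESeq2 were among the authors' tools; their versions and settings and the aligner are not given in the sources used here. The largest q in any list was 0.1. Each list belongs to 1 library.

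Peaks on chromosomes 1 to 22 were merged over all lists, and regions were placed against 19126 protein-coding genes of the RefSeq GRCh38 table. Width is the number of bases of a region under peaks of 1 library. The members and lists were chosen with earlier results of these data known. Library medians were compared with an exact two-sided permutation test over 70 assignments, with Benjamini-Hochberg adjustment over 4 measures. Log2 widths of all 36170 constitutive regions, and log2 mean member widths of 1234 genes with at least 3 members, were fitted with limma 3.58.1 (R 4.3.3, moderated variance with trend, no block), with Benjamini-Hochberg adjustment over all rows and a threshold of 0.05. The scripts (Python 3.11.15, pandas 2.3.3, scipy 1.17.1) were tested on simulated data. Genes were named as the 15 with the most members, the 10 densest with at least 5, the 5 with the largest change past the threshold and the 3 with the smallest p in the other direction; regions were named as the 5 of highest rank, the 3 widest and the 3 with the smallest p in each direction. Of each gene list the 2 to 4 genes with the most members were named. Alternatives changed peak thresholds, merging, gene-end window, covered share, list length, scaling, variance trend, replicate block and the libraries used. The -log10 q minimum of 5, the split at the 90th percentile, the split by transcript starts and the count without chromosomes 10 and 12 were added after seeing the data. Sequences are from RefSeq tables of GRCh38.p14; no genome was read, so regions away from starts have no sequence here. Of the genes and regions these rules name, 1 gene and 1 region are not reported here.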

Additional observations from a re-analysis of the deposited data

Results flagged for a closer look

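In groups of 4 libraries, 1 library stood far from the other 3, by Dixon's ratio at the 95% level, in 4 of 98 group tests; chance alone gives about 1 in 20. In UVSSA, 3MB-PP1 replicate 1 covered 1650 bp, where the next library covered 1375 bp and the lowest 1328 bp. In UST, 3MB-PP1 replicate 2 covered 1032 bp, where the other 3 covered 1122 to 1127 bp. The mean member width of PLXNA4 was 974 bp in DMSO replicate 4 and 1316 to 1382 bp in the other 3 DMSO libraries. The log2 width of members at transcript starts relative to other members stood at 0.509 for DMSO replicate 3, below the 0.709 to 0.723 of the other 3.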

How the results depend on the processing

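No read totals limit what can be said of depth, and peaks called in separate lists move in width with how each list was called. The exact tests cannot fall below 0.0286, 0.0571 with 1 library left out or 0.125 with the replicate block, so a missed threshold in those settings says nothing on stability. The width difference was -287.8 bp with peaks of at least 300 bp, -242.5 bp with merging within 500 bp, -148.2 bp where 50% of a region was covered, -250.2 bp with a 2.5 kb gene-end window, -323.6 bp at a -log10 q of at least 2, -153.8 bp with calls in 6 of 8 lists, -234.2 bp at a -log10 q of at least 5, -239 bp away from starts, -248.2 bp with the replicate block and -286.4 to -200.8 bp with 1 library left out. Peaks per member in the same order differed by 0.0527, 0.122, 0.0760, 0.112, 0.0504, 0.0745, 0.00667, 0.113, 0.112 and 0.0963 to 0.133, and by 0.175 and 0.0498 in odd- and even-numbered replicates. Relative to gene ends these were -0.156, -0.193, -0.00694, -0.196, -0.165, -0.134, -0.0698, -0.211, -0.201 and -0.221 to -0.155, and -0.140 and -0.0908 at or above and below the 90th percentile. Relative to intergenic regions the difference was positive, at 0.0323 with a -log10 q of at least 2, 0.00579 with 50% covered, 0.0528 with a -log10 q of at least 5, 0.0335 at or above the 90th percentile and 0.0885 at starts. All of these kept their direction except that against intergenic regions, and the cause was not tested.

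The number of members was 2732 with a -log10 q of at least 2, 787 with one of 5 or more, 5721 from peaks no shorter than 300 bp, 1764 with 50% covered, 27415 with calls in 6 of 8 lists and 1259 at starts. Narrower members numbered 0 with centred widths, without the variance trend and with the replicate block. They numbered 169 from the widest peak (1.53%, against 1.35% of all constitutive regions) and 58 with a common smallest width (0.577%, against 0.447%). With lists of equal length they numbered 93 (1.14%, against 0.878%). With 1 library left out they numbered 0 to 95, the highest without DMSO replicate 4 (0.863%, against 0.658%). Wider members numbered 0 to 2. Narrower genes numbered 0 with centred widths, 251 with at least 5 members, 598 with the replicate block and 141 to 560 with 1 library left out. Wider genes numbered 3 with the replicate block, 1 from the widest peak and 0 to 4 with 1 library left out. Same-numbered libraries deviated with correlations of 0.116, 0.017, 0.029 and 0.126, and libraries of different numbers with -0.135 to 0.034. For each DMSO replicate the highest value was that with the same-numbered 3MB-PP1 library. The deviation of 3MB-PP1 replicate 2 correlated more with DMSO replicate 4 (0.034) than with DMSO replicate 2 (0.017). Whether libraries of the same number share a batch was not tested.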
